A study of Mus musculus with 8 samples.

Results

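Creb5 was examined as 1 gene of a genome-wide comparison of H3K27me3 in mouse fibroblasts, through every listed region that overlapped its RefSeq span on chromosome 6 (GRCm38, chr6:53287226-53700364) or 2 kb on either side. The rule found 181 of the 265968 regions in the authors' deposited table. The members were chosen by position, but among regions that were themselves selected on the 6 library values: the table lists regions for a difference between 2 sets of 3 libraries, and the gene was picked with earlier results of these data in view. The values below are therefore a description, and no test was made of them.

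The cells were 3T3, an immortalised mouse fibroblast line, expressing either a control construct or a construct that overexpresses NNMT, nicotinamide N-methyltransferase. The labels give 3 H3K27me3 libraries per construct, called biological replicates, and 1 input library per construct. Both kinds of cells grew for 48 h at 10 µM methionine, in methionine-free DMEM made up to that level, with 10% dialyzed serum. Chromatin was fixed with 1% formaldehyde, cut with micrococcal nuclease and precipitated with the antibody C36B11. The sources used here do not give the promoter of the construct or the number of clones.

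No header ties the first or the second set of values to a construct, so the sets are called set 1 and set 2 in their listed order, and no direction below is tied to NNMT. Libraries within a set carry no replicate number. Most of the main ratios are therefore given with their range over the 9 pairs of 1 library from each set, in place of an SD. Some ratios are given without a range. All ranges come from the same 6 libraries, so overlap between ranges does not show that the ratios are alike. The labelled cell type could not be checked against marker genes, because the table holds differences in a histone mark and no expression. Whether the values were corrected for the inputs is not given, so a difference in DNA dosage and a difference in the mark cannot be told apart.

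CREB5, also called CRE-BPa, is a basic leucine zipper transcription factor. It belongs to a subfamily with ATF2 and ATF7, binds the cAMP response element and can pair with JUN. In joint cartilage it is known as a regulator of Prg4, which encodes the lubricating protein lubricin. H3K27me3 is laid down by the Polycomb repressive complex PRC2, with S-adenosylmethionine as methyl donor, and marks genes held silent. NNMT consumes the same donor when it methylates nicotinamide.

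The RefSeq (GRCm38.p6) promoter table gives 2 start sites for the gene, both on the plus strand. They lie at position 53287303 and, 286 kb further in, at position 53573374. The annotated gene span itself begins 77 bases before the first, so the nearest bases of that window, the cAMP response element included, lie inside the span. The 250 bases before each are shown because the listed regions are distributed very differently around them. Capitals mark a match to the cAMP response element TGACGTCA or to the AP-1 letters TGACTCA or TGAGTCA, searched on both strands.
Creb5 start 1 (chr6:53287053-53287302, plus strand): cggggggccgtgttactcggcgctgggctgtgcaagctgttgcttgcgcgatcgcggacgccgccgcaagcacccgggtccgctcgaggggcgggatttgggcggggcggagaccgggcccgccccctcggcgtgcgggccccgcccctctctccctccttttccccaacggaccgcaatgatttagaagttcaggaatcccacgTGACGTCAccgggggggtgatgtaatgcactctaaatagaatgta
Creb5 start 2 (chr6:53573124-53573373, plus strand): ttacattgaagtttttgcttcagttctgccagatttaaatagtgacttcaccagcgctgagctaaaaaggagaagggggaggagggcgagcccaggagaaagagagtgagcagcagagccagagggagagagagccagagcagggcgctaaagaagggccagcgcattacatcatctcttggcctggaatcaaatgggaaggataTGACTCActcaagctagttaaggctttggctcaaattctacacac

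The first sequence is rich in CG dinucleotides. It holds 28 of them and 66.4% G or C, against medians of 6 and 52.4% over the 32851 windows of the same length in the RefSeq table. It carries 1 cAMP response element, 45 to 38 bases before the start, a match found in 1.55% of those windows. The second sequence holds 4 CG dinucleotides and 49.2% G or C. It carries 1 AP-1 match, 45 to 39 bases before the start, which 4.46% of the windows hold. These matches describe the letters only.

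Neither start site was itself inside a listed region. Start 1 fell in a gap of 2.8 kb between 2 listed regions, which ended 1453 bases before it and began 1348 bases after it. Start 2 fell in a gap of 182.8 kb, the longest of those that reach the gene. The nearest region before start 2 ended 32174 bases away and the nearest after it began 150627 bases away. A gap shows only that no difference was listed there; the table does not say whether the mark was equal in the sets or low in both.

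All 181 regions of Creb5 had a higher sum in set 2, and 0 were higher in set 1. Of all listed regions, 40.5% were higher in set 2. In 163 of the 181 (90.1%) the lowest set 2 value lay above the highest set 1 value, against 24.7% of all listed regions. The ratio reached 2-fold in 177 regions and 4-fold in 73, while 13.1% and 2.46% of all listed regions did so. These shares are not matched for length, and Creb5 regions were shorter, with a median of 150 bp against 450 bp. Since the table was built on this contrast, the counts say how the listed regions of the gene fall and are no evidence beyond that.

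Summed over the 181 regions, the libraries of set 1 stood at 2985, 2664 and 2620 and those of set 2 at 8593, 9494 and 8675. The lowest library of set 2 was thus far above the highest of set 1, and within a set the libraries lay close together. Set 2 was 3.24-fold higher (2.88 to 3.62 over library pairs), a log2 ratio of 1.69. Over all listed regions the shift ran the other way, at -0.19 on the log2 scale. The median ratio of the single regions was 3.45-fold.

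**Figure D1:**
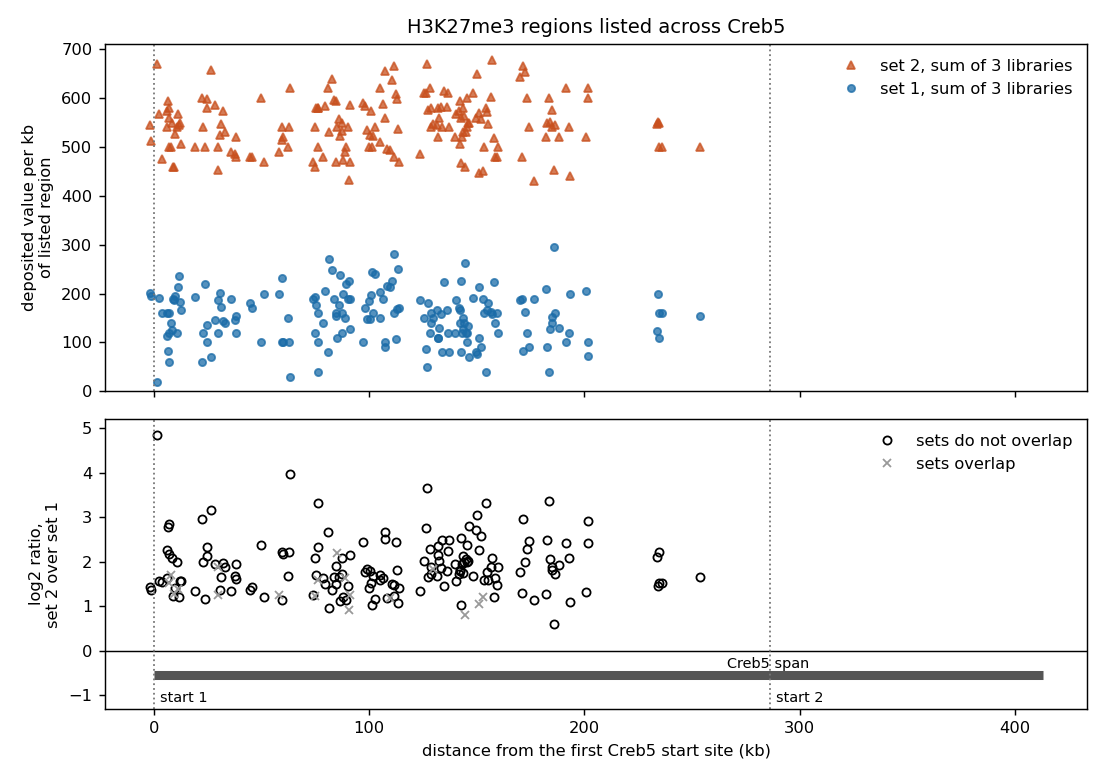
Upper panel: deposited value per kb of each of the 181 listed Creb5 regions, summed over the 3 libraries of set 1 (circles) and of set 2 (triangles), against distance in kb from the first start site. Lower panel: log2 ratio of set 2 over set 1 per region (pseudocount 1), with circles where the sets do not overlap and crosses for the 18 where they do; the bar is the gene span and dotted lines mark the 2 start sites. Every region lies above 0, and none lies beyond 254 kb from the first start site.

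Creb5 regions were short and spread out. Their median length was 150 bp, against 450 bp over the whole table, and the longest was 2000 bp. Together they covered 47.1 kb, or 11.3% of the span with its flanks. Of the 181, 37 were 50 bp long, 28 were 500 bp or longer and 7 reached 1 kb. The 28 longer regions held 50.8% of the summed values. All 28 had set 2 wholly above set 1, as did 24.7% of all listed regions of any length. No share over other regions of 500 bp or longer is set beside this.

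The 2 kb flank decided little at either end. The first region inside it (chr6:53285051-53285550) read 0, 44 and 57 for set 1 against 96, 101 and 76 for set 2, from the authors' deposited table. The nearest outside, chr6:53283951-53284200, read 6, 7 and 0 against 46, 51 and 52 in the same order, from the authors' deposited table. Beyond the other end the nearest was chr6:53724001-53724100, 23.6 kb past the gene, with 6, 8 and 3 against 20, 18 and 10 in the authors' deposited table. All of these were again higher in set 2.

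Most of the listed regions lay in the 5′ part of the gene. The gene span was cut into 4 equal segments of 103 kb. The first of these, with the 2 regions before it, held 86 regions and the second 89. The third held 6 and the last 0. The listed part of Creb5 ended at position 53541200, 254 kb after the first start site, and the remaining 159 kb of the gene carried no region. The ratio itself changed little along the listed part, at 3.02-fold in the first segment (2.54 to 3.67 over pairs), 3.41-fold in the second (3.05 to 3.96) and 3.45-fold in the third (3.0 to 4.47), ranges that overlap.

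In bins of 20 kb from the first start site, the ratio lay between 2.56-fold at 40 to 60 kb and 4.21-fold at 160 to 180 kb. These 2 bins held 7 regions each, with ranges over pairs of 1.96 to 3.3 and 3.37 to 6.18. The best filled bin, 140 to 160 kb, held 33 regions at 3.53-fold (2.79 to 4.54). Regions were thickest between 80 and 160 kb, where 4 bins held 20 to 33 each, and the first 20 kb also held 20. Longer empty stretches inside the listed part were 31.4 kb from 202 kb on and 17.5 kb from 236 kb on.

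The region with the largest ratio was the first one after start 1, chr6:53288651-53288950, 300 bp long and centred 1.5 kb into the gene. In the authors' deposited table the set 1 libraries read 2, 3 and 1 and the set 2 libraries 52, 106 and 43. All 3 set 1 libraries were near the bottom of the scale. The ratio was 33.5, with a wide range over pairs of 14.3 to 106 because the set 1 values are so small. On the other side of the start site, the last region before it (chr6:53285601-53285850) read 17, 13 and 19 for the set 1 libraries and 44, 34 and 50 for those of set 2, from the authors' deposited table. Its ratio was 2.61.

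Among regions whose 6 values summed to at least 100, the next largest ratios were at 127 kb and 26.4 kb. The region at 127 kb (chr6:53414051-53414350) read 15, 0 and 0 for the set 1 libraries and 71, 58 and 72 for those of set 2, from the authors' deposited table. That at 26.4 kb (chr6:53313551-53313850) read 0, 14 and 7 against 68, 75 and 54, again set 1 first and from the authors' deposited table. In both, set 2 was even and set 1 scattered down to 0. The log2 ratios, with a pseudocount of 1 on each sum, were 3.66 and 3.17.

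The strongest region by summed value was also the longest, chr6:53434451-53436450, 148 kb into the gene. The authors' deposited table gives it 161, 88 and 133 for the libraries of set 1, against 396, 462 and 363 for those of set 2. Every set 2 library was more than 2-fold above every set 1 library, and the ratio was 3.2 (2.25 to 5.25 over pairs). Next to it, chr6:53437301-53437950 was low in set 1 at 17, 11 and 22, against 150, 149 and 123 for set 2, from the authors' deposited table. Its ratio of 8.44 was the largest of the regions of 500 bp or longer.

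The other strong regions fell into 3 groups along the first and second segments. At 81.5 to 83.8 kb, 3 neighbouring regions were 1.96-fold, 2.57-fold and 3.18-fold higher in set 2. The middle one (chr6:53369351-53370600) showed how set 1 libraries could differ, with 175, 55 and 81 there against 279, 272 and 247 for set 2, from the authors' deposited table. At 106 and 110 kb the ratios were 3.13 and 2.83, and at 133 and 135 kb they were 3.67 and 2.75. In all 8 of the regions with the highest sums the sets did not overlap, and together these held 24.1% of the summed values of the gene. No share over equally strong regions elsewhere is set beside this count.

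The smallest ratios among regions with a sum of at least 100 were 1.53, 1.75 and 1.96. The weakest, chr6:53472951-53473450, read 58, 55 and 35 for set 1 against 65, 81 and 81 for set 2, from the authors' deposited table, so that the sets lay next to each other without overlapping. At chr6:53431901-53432200 they did overlap, with 19, 31 and 29 for set 1 against 27, 63 and 48 for set 2, from the authors' deposited table. The 18 regions with overlapping sets were 50 to 350 bp long, and their summed values ran from 31 to 274.

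**Figure D2:**
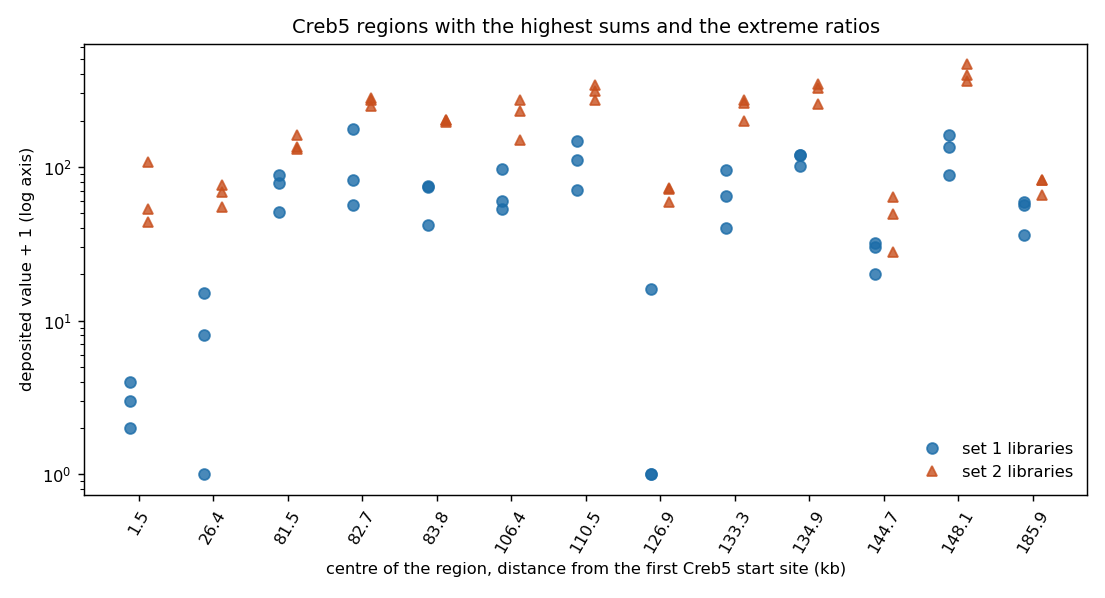
Deposited value plus 1 (log axis) in each library for the 13 Creb5 regions with the highest sums or the largest and smallest ratios, ordered by distance in kb of their centre from the first start site; circles are the 3 libraries of set 1 and triangles the 3 of set 2. The sets overlap in 1 of the 13, at 144.7 kb, and the widest separation is at 1.5 kb, where set 1 reads 2, 3 and 1.

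Within Creb5, zeros occurred in set 1 only. Its libraries read 0 in 13, 13 and 23 of the 181 regions, while no set 2 library read 0 in any. Every Creb5 region was higher in set 2, which makes zeros likelier in set 1. No count of zeros over other regions is set beside these. The median value per region was 8, 8 and 5 for the set 1 libraries and 26, 31 and 25 for those of set 2. The summed ratio was 4.91 over the 37 regions of 50 bp, 3.32 over the 75 of 100 to 200 bp, 3.59 over the 41 of 250 to 450 bp and 2.97 over the 28 of 500 bp or longer. Over all regions of the table that were higher in set 2, it fell with each class, from 4.4 through 2.49 and 1.73 to 1.41. The choice of regions higher in set 2 fixes the direction of these values, and they are given as a description.

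Within the listed regions, the level in set 2 was ordinary and that in set 1 was low. Per kb of listed region, the 3 libraries of a set summed to 568 in set 2 and 176 in set 1 at Creb5. Over the 1896 genes with at least 20 regions, the medians were 512 in set 2 and 571 in set 1. Creb5 had the 21st lowest value of these genes in set 1 and the 1340th lowest in set 2. The list bounds the higher set from below: no region higher in set 2 had a set 2 sum under 400.0 per kb, and the lowest in Creb5 was 430.0. An even level in set 2 along the gene is therefore partly a property of what was listed. The same bound acts on set 1: no region higher in set 1 had a set 1 sum under 388 per kb. Of the 1896 genes, only 34.2% were higher in set 2 in sum. The low rank of Creb5 in set 1 is therefore not a result separate from its rank by ratio, which was 22nd.

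Creb5 was part of a much wider stretch in which every listed region was higher in set 2. This run of consecutive regions, chr6:52947801-54334250, held 686 regions over 1.39 Mb and reached from the body of Jazf1 into Prr15. By number of regions it was the 5th among 52055 such runs in the table, and the 4th among runs higher in set 2. By length along the chromosome it was only the 268th. It began 337 kb before the first Creb5 region and ended 634 kb after the gene. Without the Creb5 regions, the other 505 regions of the run were 2.04-fold higher in set 2 (1.83 to 2.43 over pairs).

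In bins of 100 kb, the ratio was highest from 100 kb before the first start site to 600 kb after it. It declined on both sides of that stretch, so the high ratios did not begin at the gene. From 300 to 200 kb before the first start site it was 1.7-fold (1.56 to 1.98 over pairs), from 200 to 100 kb 2.25-fold (1.77 to 3.01), and in the last 100 kb before the start 3.33-fold (2.96 to 3.66). Inside the gene the 3 bins with regions stood at 3.09, 3.33 and 3.6. After the empty stretch it was 3.68-fold at 400 to 500 kb (3.03 to 5.54), 2.5-fold at 700 to 800 kb and 1.57-fold at 1000 to 1100 kb (1.44 to 1.81). Neighbouring bins have overlapping ranges, while the bins at the ends of the decline do not overlap in range with those in the gene. All bins share the same libraries, so overlap does not show that neighbouring bins are alike.

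In the listed regions of these bins the set 1 level moved and the set 2 level hardly did. The list partly fixes this, since it holds whichever set is higher near the same level. Over the whole list the median was 555 per kb in set 2 where set 2 was higher. Where set 1 was higher it was 552.5 per kb in set 1. The values therefore do not show which set changed. Per kb of listed region, set 2 stayed at 525 to 579 in the 12 bins with regions from 300 kb before to 1000 kb after the first start site. Set 1 fell from 336 in the first of them to 169 just before the gene and 151 at 200 to 300 kb, and rose again to 312 at 900 to 1000 kb. Regions upstream of Creb5 in the run covered 84.1 kb, those in the gene 47.1 kb and those downstream 93.9 kb. Over these 3 parts set 2 stood at 583, 568 and 550.0 per kb and set 1 at 325, 176 and 235.

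**Figure D3:**
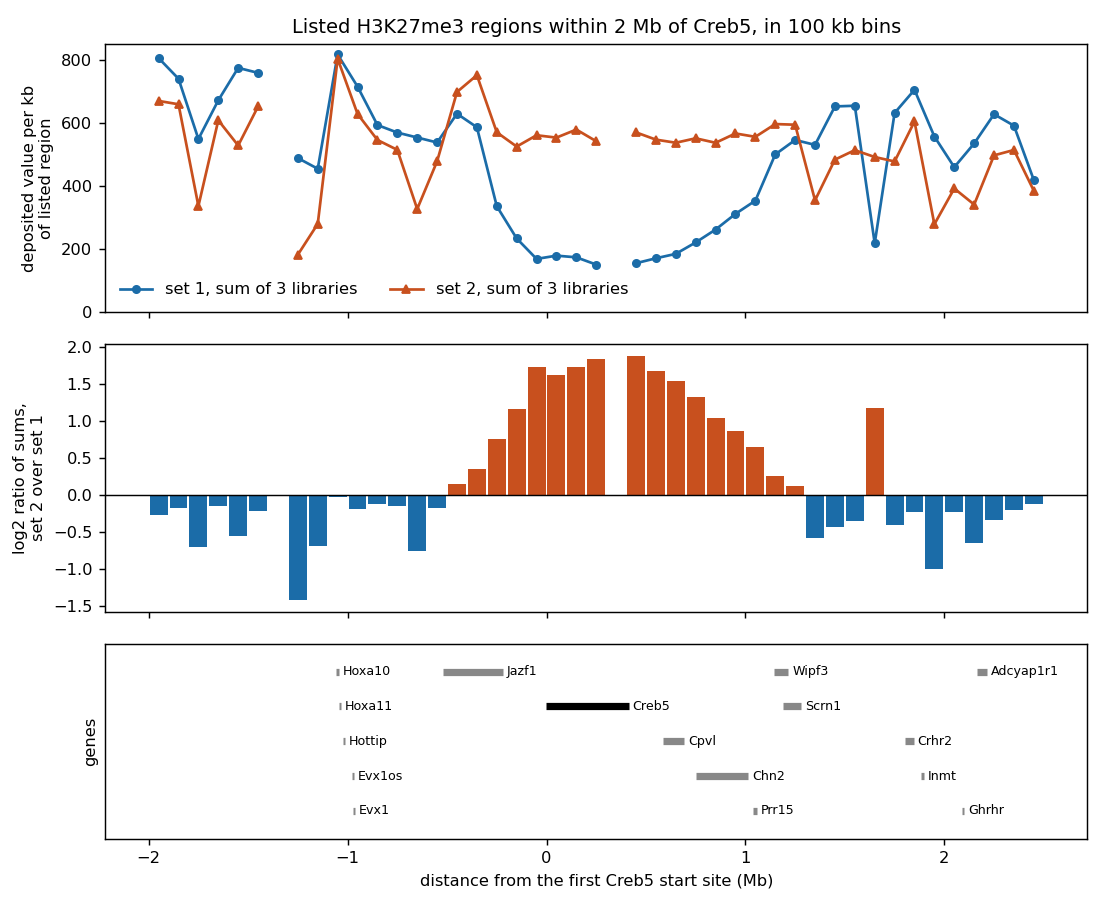
Listed regions in 100 kb bins within 2 Mb of Creb5, against distance in Mb from its first start site. Top: deposited value per kb of listed region, summed over the 3 libraries of set 1 (circles) and of set 2 (triangles), with gaps for bins without regions. Middle: log2 ratio of sums, set 2 over set 1. Bottom: spans of genes with at least 5 regions. The bars rise to 1.88 at 0.4 to 0.5 Mb and turn below 0 outside the raised stretch, apart from 1 bin at 1.6 to 1.7 Mb.

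The wider neighbourhood was not shifted in the same way. The 1367 regions within 2 Mb outside Creb5 include the other 505 of the run, all higher in set 2 at 2.04-fold. Values over this window therefore mix the run with its surroundings. Of the 1367, 815 (59.6%) were higher in set 2, against 40.5% of all listed regions. Together the 1367 summed to 0.985-fold (0.944 to 1.06 over pairs), which does not separate the sets. The log2 ratio of these sums was -0.02, and it turned to 0.28 within 1 Mb, where the run takes up more of the window, and to 0.17 after scaling both sets to one total. Regions before the gene stood at 0.958-fold (0.929 to 1.01) and those after it at 1.04-fold (0.971 to 1.15). Over chromosome 6 as a whole, 44.8% of 20181 regions were higher in set 2.

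Of the 84 other coding and long noncoding genes within 2 Mb, 49 carried a region. Of these, 16 carried only regions higher in set 2 (genome-wide 16.8% of the 12236 genes with a region) and 7 carried no region higher in set 2 (genome-wide 43.4%). The 16 are not separate, since most lie in the run and some share regions. Gm38815 lies inside Creb5, and its 7 regions are Creb5 regions. Gm33716 lies inside Cpvl, and 9530036M11Rik and Gm15527 lie inside Chn2. Leaving out predicted and clone-named genes, 24 of 49 carried a region, 6 with all of them higher in set 2 and 4 with none higher. The share of genes with at least 20 regions and every region higher in set 2 was 9.34% genome-wide, or 177 of 1896. Among those 177, Creb5 was the fifth by number of regions.

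Just before the gene, the predicted noncoding genes Gm4872 and Gm33348 carried 7 and 12 regions at 3.52-fold (2.85 to 5.22 over pairs) and 3.61-fold (2.81 to 4.95). On its other side Cpvl, a serine carboxypeptidase gene, carried 102 regions, all higher in set 2, at 2.94-fold (2.58 to 3.45 over pairs). Summed per library it stood at 1407, 1286 and 1209 for set 1 against 3676, 4173 and 3633 for set 2. Its range over pairs overlaps that of Creb5 (2.88 to 3.62), but both of its ends lie lower, in the same libraries. Tril, a Toll-like receptor accessory protein, had 2 weak regions at 2.88-fold (1.5 to 9.67 over pairs). Chn2, which encodes the Rac-inactivating protein beta-chimaerin, had 125 regions, all higher in set 2, at 1.98-fold (1.73 to 2.44), below the range of Creb5.

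At genes that reach past the ends of the run or lie just beyond them, both directions appeared. Jazf1, a zinc finger gene, carried 167 regions, 133 of them higher in set 2 and the other 34 lower, at 1.25-fold (1.17 to 1.39). At Prr15, 8 of 10 regions were higher in set 2, at 1.56-fold (1.27 to 1.91), and at Wipf3, an actin regulator gene, 26 of 38, at 1.13-fold (1.04 to 1.23). Scrn1 stood at 1.07-fold with 19 of 40 regions higher in set 2, and its range of 0.999 to 1.13 takes in 1. Hibadh and Tax1bp1, the genes before Jazf1, carried no region.

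Further out, genes went in both directions. Evx1, a homeobox gene before Jazf1, carried 5 regions at 0.866-fold (0.792 to 0.955 over pairs), 1 of them higher in set 2. The nearby HoxA genes were mixed. Hoxa9 stood at 0.628-fold over 2 regions (0.477 to 0.857) and Hoxa10 at 0.998-fold over 5 (0.931 to 1.04). Hoxa11os stood at 1.21-fold over 4 regions (1.14 to 1.29) and Hoxa13 at 1.67-fold over 1 (0.987 to 2.32). On the far side Adcyap1r1, a receptor for the neuropeptide PACAP, had 20 regions, all lower in set 2, at 0.633-fold (0.557 to 0.761). Inmt, an amine N-methyltransferase gene, stood at 0.749-fold with 6 of 7 regions lower in set 2. Nod1, an innate immune receptor gene, was among those higher in set 2, with 3 small regions at 3.6-fold, all higher in set 2, and a lowest library pair of 1.85. Its library sums were only 13, 13 and 4 for set 1 against 44, 24 and 40 for set 2.

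**Figure D4:**
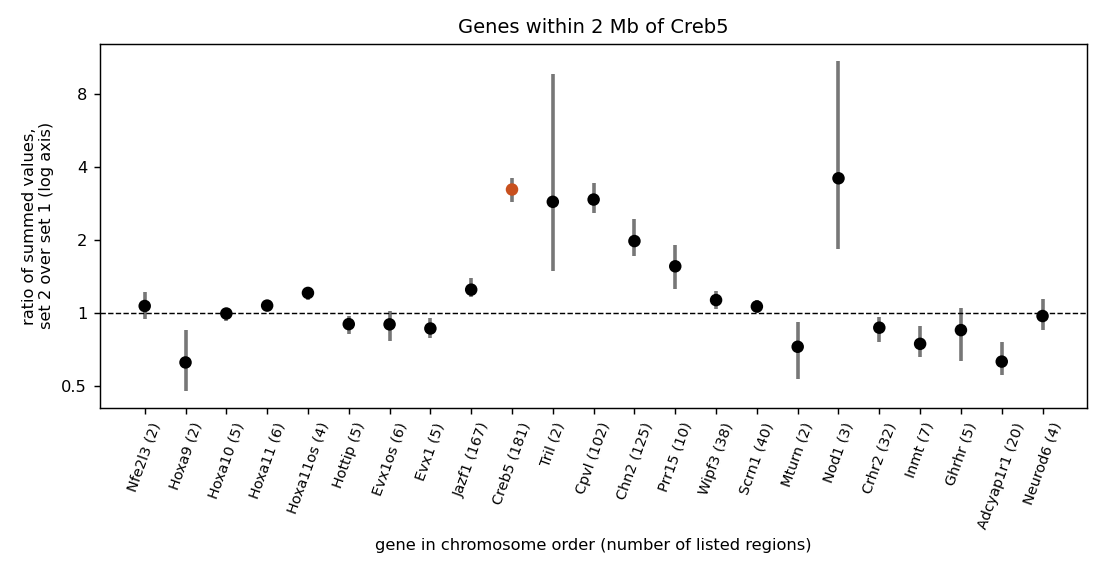
Ratio of summed values, set 2 over set 1 (log axis), for the 23 genes within 2 Mb that carry at least 2 listed regions and are not predicted or clone-named, in chromosome order, with Creb5 coloured and the number of regions in parentheses. Points are ratios of the set sums and vertical lines run from the lowest to the highest of the 9 library pairs. Creb5 stands at 3.24 and Cpvl somewhat lower at 2.94, with Chn2 and Prr15 lower still and Adcyap1r1 below 1. The lines of Tril and Nod1, with 2 and 3 small regions, are the longest.

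Listed regions were also counted at the other genes of the CREB, ATF and AP-1 families. Of 31 genes besides Creb5, all found in RefSeq, 7 carried a listed region (22.6%, against 35.3% of 34614 coding and long noncoding genes). All 7 were lower in set 2 in sum, and their median log2 ratio was -0.93. Over the 12236 genes with a region, 8360 (68.3%) were lower in set 2 in sum and the median was -0.37. Neither Atf7 nor Jun carried a region, nor did Creb1, Crem or Atf1, the core of the cAMP response family.

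Atf2, the closest relative in the list with regions, carried 2. Their sums were 396, 354 and 332 for set 1 against 162, 108 and 173 for set 2, so that the sets did not overlap, at 2.44-fold higher in set 1. Creb3l3, a liver and gut factor anchored in the endoplasmic reticulum, stood at 2.24-fold higher in set 1 over 4 regions. Atf3, a stress-induced factor, had 1 weak region at 2.88-fold, with 18, 20 and 11 for set 1 against 5, 6 and 6 for set 2. Crebbp, the histone acetyltransferase that binds phosphorylated CREB, had 1 at 1.62-fold.

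The 3 Batf genes, AP-1 factors of immune cells, were also higher in set 1. Batf was 1.37-fold higher over 11 regions, Batf2 1.19-fold over 8, 2 of which were higher in set 2, and Batf3 1.9-fold over 9. The sums of Batf, at 5813, 5264 and 5342 for set 1 against 3861, 4119 and 3986 for set 2, were of the same order as those of Creb5 in a far shorter gene.

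The 5 genes whose 6 library sums were most like those of Creb5 were Gm34642, Khdrbs3, Grik1, Nckap5 and Spag16. Likeness was the distance between the 6 log2 sums, each centred on the mean of its gene, over the 1896 genes with at least 20 regions. The distances were 0.095 for Gm34642, a predicted noncoding gene on chromosome 6, and 0.12, 0.125, 0.134 and 0.171 for the others. In all 5 every region was higher in set 2, at 3.23-fold, 3.15-fold, 3.4-fold, 3.36-fold and 3.26-fold. Ratios close to that of Creb5 follow from the choice by library sums and are no separate result. Grik1, a kainate receptor subunit gene, carried 91 regions and Khdrbs3, an RNA-binding protein gene, 25.

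By ratio Creb5 was 22nd of the 1896 genes, and by number of regions 46th. The median log2 ratio of these genes was -0.28, and 34.2% of them were higher in set 2 in sum. The genes that, like Creb5, had only regions higher in set 2 and carried more of them were Rbfox1 with 428, Dscam with 372, Zmat4 with 286 and L3mbtl4 with 218. Their ratios were 3.43, 2.61, 2.74 and 1.96.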

How the data were processed

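The deposited table was made by the authors from 6 H3K27me3 libraries. The submitters' processing notes name CASAVA, Trimmomatic 0.36, BWA 0.7.17 and GRCm38. The sources used here do not name the caller, the normalization or the role of the 2 inputs. As deposited, the table has no header; each region holds 6 whole-number values and the authors' −log10 p, and the score column was set by the authors to 1 constant. The values may be rescaled, so no count model was fitted, and depth is unknown. The p, at most 0.1, was used only in the alternatives that filter on it.

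Regions within 2 kb of a RefSeq span were summed per library (python 3.11.15, pandas 2.3.3). Log2 ratios are of sums plus a pseudocount of 1. The members and gene lists were chosen with earlier results of these data known. Named were Creb5, some genes within 2 Mb with a region, the CREB, ATF and AP-1 list, and the 5 nearest genes by library sums. Within Creb5, named were the 8 highest sums, the longest region, and the 3 largest and 3 smallest ratios at a sum of at least 100. Regions set beside these, the run of regions and the 4 genes with more regions than Creb5 were chosen after their values were seen. Brute-force overlaps differed from the fast ones in 0 of 200 genes. Proteins were not analysed here. Alternatives covered flank, filters, scaling, pseudocount, window and each library left out.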

Additional observations from a re-analysis of the deposited data

How the results depend on the processing

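All Creb5 regions were higher in set 2 under every alternative run. In the alternatives that only filter regions this was fixed, since all 181 were higher in set 2 before filtering. Rescaling raised set 2 against set 1, so it could not turn a region either. The log2 ratio of 1.69 kept its direction in 18 alternatives, at 1.57 to 1.89; it was 1.57 with regions of at least 500 bp, and 1.89 both with the sets rescaled to equal sums and with each library rescaled to the same sum. Leaving out each library in turn gave 1.65 to 1.76, with 181 regions higher in set 2 each time. Between 165 and 173 regions then had sets that did not overlap. That number could not fall below the 163 of the main result, because leaving out a library only loosens the condition. Regions at the authors' p under 0.01 numbered 110, all 110 higher in set 2 and 106 not overlapping, and regions of at least 500 bp numbered 28, with 28 and 28; both leave fewer regions by construction. The log2 ratio of the regions within 2 Mb, -0.02, turned to 0.173 with the sets rescaled, to 0.173 with each library rescaled and to 0.279 within 1 Mb; leaving out each library gave -0.049 to -0.006. No paired analysis was possible because the values carry no replicate numbers. Depth is unknown, so small values such as those near the first start site have no counting error here.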
